A study of Mus musculus with 36 samples.

Results

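Of the 54232 genes that were counted, 10 are described here, namely Cib3, Atp11a, Ccdc120, Scube3, Shc2, Cdh6, Dct, Aqp4, Kcnk10 and Hopx. They were picked because liver RNA differed strongly between mice that lack Nampt in hepatocytes and their WT littermates, for several of them also in cells taken from the liver. All 10 were found by symbol, and all 10 passed the filter on low counts that left 14932 genes for testing, though Scube3 did not pass it on the libraries of either genotype alone and Cdh6 not on the WT libraries alone. Because the difference between genotypes chose them, it is given below as a description without a test. Tests were made on the difference between sample types averaged over the genotypes, a contrast other than the one that chose the genes but with the same libraries in it, and on relatives and partners of the 10 genes. The levels that chose the genes enter the averaged contrast too. Scube3 and Cdh6 owe their place after the filter to HNKO liver, so their differences between sample types are given as values without a test.

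RNA was sequenced from 3 kinds of sample of each of 12 female mice on a C57BL6 background. HNKO mice carried floxed Nampt alleles and Alb-Cre, a recombinase driven by the albumin promoter and therefore active in hepatocytes. The study calls the knockout hepatocyte-specific, and loss of the gene in other liver cells was not measured here. WT mice were floxed littermates without Cre. All mice ate an L-amino acid defined purified diet for 3 to 5 weeks, starting at 10 to 12 weeks of age. Liver (L) samples were cut from the median lobe once the blood had been flushed out, cell suspension (CS) samples were the washed cells of the other lobes after collagenase, and primary hepatocytes (PH) were those cells after a day on collagen. The HNKO L, HNKO CS, WT CS, HNKO PH and WT PH groups held 6 libraries each and WT L held 5, since the WT liver of mouse 558 stood apart from all others and was left out. Contrasts of CS or PH with L also compare lobes.

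Nampt makes nicotinamide mononucleotide from nicotinamide and is the main entry of recycled nicotinamide into NAD+, the cofactor of redox reactions and the substrate of sirtuins and PARPs. The 10 genes do not form a pathway. Most are better known from other organs, where they act in signalling, adhesion, membrane transport, pigment synthesis and the control of transcription.

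Total counts ranged from 8698735 to 20350519 over the 35 libraries used. Nampt was measured at 31.3 to 52.1 CPM (counts relative to a library size scaled by TMM) in HNKO L against 55.6 to 121 CPM in WT L, and at 69.1 to 87.3 CPM in HNKO PH against 175 to 241 CPM in WT PH, with no overlap in either. In CS the HNKO range (27.8 to 59.2 CPM) met the WT range (58.5 to 159 CPM), because HNKO mouse 562 lay just above WT mouse 544. The livers were rich in hepatocyte RNA, with Alb at 68780 to 143000 CPM in HNKO L and 127300 to 156200 CPM in WT L. The summed level of 10 cholangiocyte markers, the genes of bile duct cells, was 104 to 1433 CPM in HNKO L and 65.3 to 86.3 CPM in WT L, with HNKO mouse 552 the highest. In these bulk libraries, fewer cells of a type and less RNA per cell cannot be told apart.

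The genes that were higher in HNKO L were Cib3, Scube3, Shc2, Cdh6, Ccdc120 and Atp11a, and those that were lower were Dct, Aqp4, Kcnk10 and Hopx. The difference was not equally steady across the sample types. The CPM of HNKO and WT libraries did not overlap for 9 of the 10 genes in L, 5 higher and 4 lower in HNKO, for 6 in CS, 4 higher and 2 lower, and for 2 in PH, both lower. Of all tested genes, 3.50% were without overlap in L (2.08% higher and 1.42% lower in HNKO), 0.743% in CS (0.509% and 0.234%) and 2.04% in PH (0.824% and 1.21%). The 2 genes apart in PH were Dct and Kcnk10, lower in HNKO in all 3 sample types, and over all tested genes only Cpne8, Dct and Kcnk10 were apart in the same direction in all 3 (0.0201%). For Kcnk10 in PH this rested on 2 counts in HNKO against 14 in WT. Among the 6 genes that were higher in HNKO L, Ccdc120 was lower on average in HNKO PH, and Cib3, Scube3, Shc2 and Cdh6 had fitted differences in PH smaller than their standard errors. These shares cannot be read as results about the 10 genes, which were picked on the same contrasts.

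**Figure D1:**
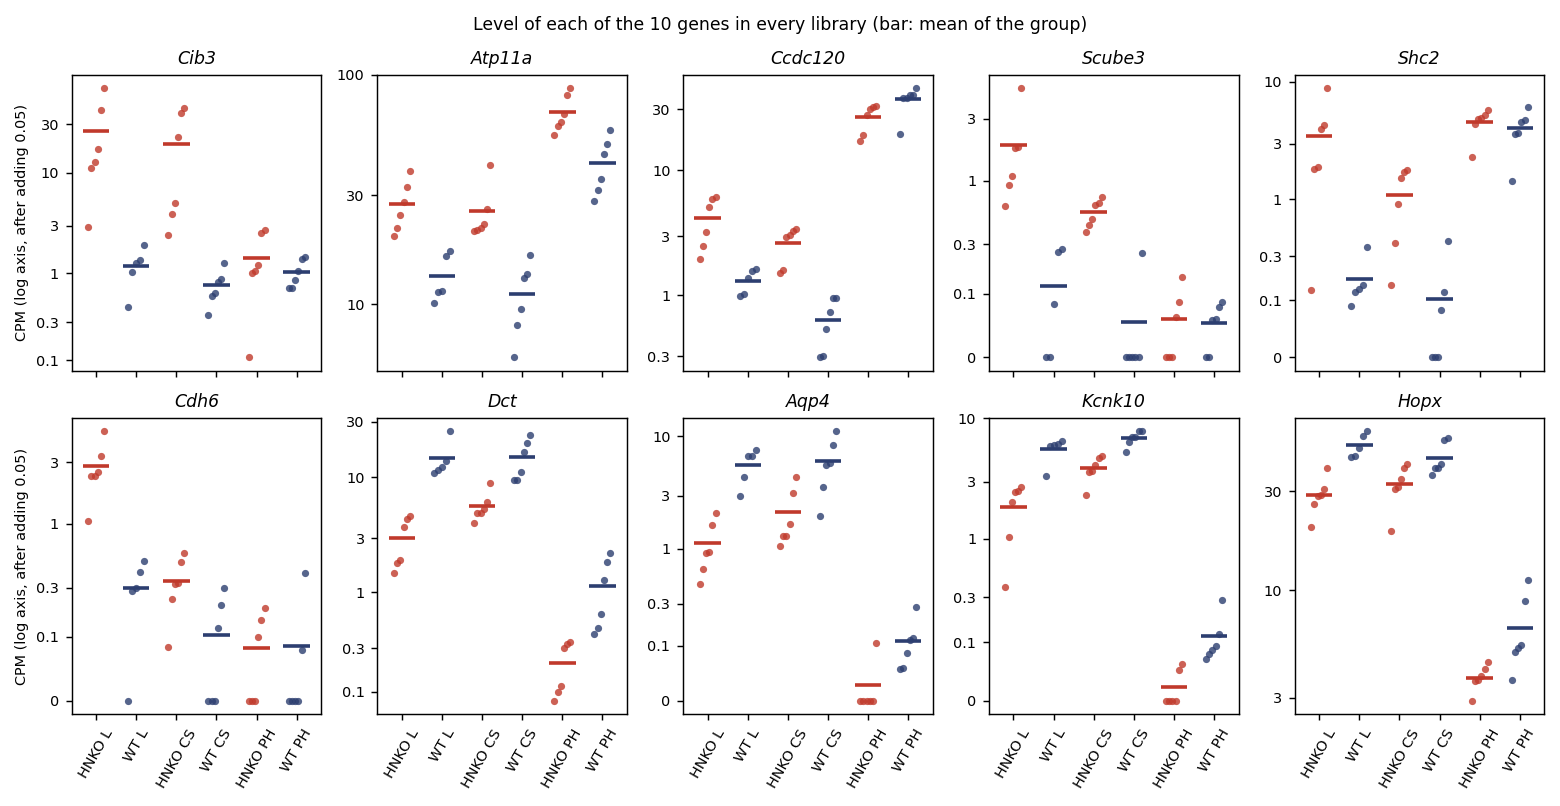
CPM of each of the 10 genes (y axis, logarithmic after 0.05 CPM was added) in every library of the 6 groups (x axis). Points are libraries, bars are group means, HNKO is red and WT is blue. Dct and Kcnk10 are lower in every HNKO library than in every WT library of the same sample type, and Cib3 is apart in L and CS but not in PH. In PH, Kcnk10 had at most 1 count in an HNKO library.

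To show where transcription of the 10 genes starts, the windows from 250 bases before to 50 bases after the annotated start were read from RefSeq on GRCm38.p6. The table held 11 such windows for 9 of the 10 genes, with a pair each for Kcnk10 and Hopx. The windows of 3 genes are printed 5′ to 3′, for the gene with the largest difference in CS (Cib3), the gene that was higher in HNKO in each sample type and reached the highest CPM (Atp11a), and the more abundant of the pair, Dct and Kcnk10, that was lower without overlap in each sample type (Dct). Capitals mark matches, on either strand, to the 8 motifs searched. These were the TATA box TATAAA, the box CCAAT, the GC box GGGCGG, the AP-1 motif (TGA, any base, TCA), the cyclic AMP response element TGACGTCA, the M-box core CATGTG of Mitf, the TEAD motif GGAATG and the nuclear receptor core AGGTCA. The Cib3 window is at chr8:72212788-72213087 on the minus strand, that of Atp11a at chr8:12756766-12757065 on the plus strand and that of Dct at chr14:118052197-118052496 on the minus strand.
Cib3: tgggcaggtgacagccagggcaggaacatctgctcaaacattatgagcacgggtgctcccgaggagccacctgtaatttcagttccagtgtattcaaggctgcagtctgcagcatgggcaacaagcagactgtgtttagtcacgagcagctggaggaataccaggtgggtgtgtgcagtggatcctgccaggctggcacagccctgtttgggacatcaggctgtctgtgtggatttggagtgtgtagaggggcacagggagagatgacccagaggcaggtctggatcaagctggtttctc
Atp11a: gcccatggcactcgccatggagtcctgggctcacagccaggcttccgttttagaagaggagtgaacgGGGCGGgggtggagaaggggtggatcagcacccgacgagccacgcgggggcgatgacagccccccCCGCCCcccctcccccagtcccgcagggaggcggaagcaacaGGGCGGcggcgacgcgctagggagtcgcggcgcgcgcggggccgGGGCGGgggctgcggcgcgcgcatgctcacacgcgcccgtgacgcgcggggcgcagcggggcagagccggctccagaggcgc
Dct: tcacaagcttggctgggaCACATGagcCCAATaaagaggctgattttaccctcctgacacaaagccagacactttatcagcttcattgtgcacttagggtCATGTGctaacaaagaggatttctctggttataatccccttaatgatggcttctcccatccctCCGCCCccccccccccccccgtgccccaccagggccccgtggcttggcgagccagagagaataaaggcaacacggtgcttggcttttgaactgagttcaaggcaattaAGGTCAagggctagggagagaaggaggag

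The Cib3 window held none of the 8 motifs and 3 CpG dinucleotides at 55.7% GC. The Atp11a window was made of 76.0% GC with 39 CpG and matched GGGCGG alone, a motif present in 35.7% of all 32851 windows, whose median GC content was 52.7%. The Dct window matched the box CCAAT (37.4% of all windows), the GC box, the M-box core (14.2%) and the nuclear receptor core (16.3%). The M-box core is read by Mitf in melanocytes, and among the 11 windows it was found in that of Dct alone. The TATA box (13.6% of all windows), the AP-1 motif (7.81%) and the cyclic AMP response element (1.79%) were in none of the 11, and the TEAD motif (14.7%) was in those of Shc2 and Kcnk10. A match is a description of the letters and not a bound site.

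Of the genes for cytoplasmic signalling proteins, Cib3 had the largest difference. It encodes an EF-hand protein that binds calcium and integrin tails and lies at chr8:72204335-72212837 on the minus strand. In L the 6 HNKO libraries had 2.96 to 67.5 CPM with a median of 14.9, and the 5 WT libraries had 1.92, 0.439, 1.02, 1.28 and 1.37 CPM. Every HNKO liver was above every WT liver, and HNKO mice 552 and 566 were the highest while 546 was the lowest. The fitted log2 fold change was 4.39 ± 0.75 (SE) and ranked 9 by size among the 14932 tested genes.

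In CS the HNKO libraries ranged from 2.46 to 43.3 CPM (median 13.8) and the WT libraries from 0.365 to 1.27 CPM (median 0.722), at a log2 fold change of 4.65 ± 0.74. The groups were again apart, but the order of the HNKO mice changed. Mouse 566 had 41.3 CPM in L and 2.46 CPM in CS, the lowest of its group, and mouse 542 had 12.9 CPM in L and 43.3 CPM in CS, the highest. In PH the groups overlapped, with 0.110 to 2.72 CPM (median 1.14) in HNKO and 0.704 to 1.47 CPM (median 0.955) in WT, at a log2 fold change of 0.45 ± 0.71. Thus Cib3 was lower in PH than in CS in 6 of 6 HNKO mice, and higher in PH than in CS in 5 of 6 WT mice.

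Shc2 encodes an adaptor that links phosphorylated receptor tyrosine kinases to Ras and is best known from neurons (chr10:79618051-79637918, minus strand). The HNKO livers had 0.132 to 8.89 CPM (median 2.93) and the WT livers 0.137, 0.126, 0.372, 0.150 and 0.0854 CPM. In 5 of the HNKO livers the level was above every WT liver, and mouse 546, with 2 counts, lay among them, which made Shc2 the only one of the 10 genes whose livers overlapped. The log2 fold change was 4.31 ± 0.73. In CS the level was 0.152 to 1.80 CPM in HNKO (median 1.22) and 0 to 0.416 CPM in WT (median 0.0373), with 3 WT libraries at 0, and the fold change was 3.34 ± 0.80. Mice 540 and 546 gave the 2 lowest HNKO suspensions, at 0.152 and 0.403 CPM, and WT mouse 558 the highest WT one. In PH both groups were high and overlapped, the HNKO libraries having 2.34 to 5.81 CPM and the WT libraries 1.43 to 6.14 CPM, with a fold change of 0.20 ± 0.48.

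Ccdc120, a coiled-coil protein that binds cytohesins and takes part in neurite growth and endosome traffic, lies at chrX:7731714-7750905 on the minus strand. Its HNKO livers had 1.97 to 6.18 CPM (median 4.17) and its WT livers 1.03, 1.57, 1.40, 0.978 and 1.62 CPM. The lowest HNKO liver (mouse 546) was just above the highest WT liver (mouse 564), and the log2 fold change was 1.65 ± 0.31. In CS the HNKO range was 1.52 to 3.44 CPM and the WT range 0.293 to 0.950 CPM, at 2.04 ± 0.35, with a clear gap. In PH the sign turned, with 16.9 to 31.8 CPM (median 28.6) in HNKO and 19.3 to 44.2 CPM (median 37.9) in WT, at -0.47 ± 0.23. The overlap in PH rested on WT mouse 544, whose 19.3 CPM was below 4 of the HNKO libraries, while the other WT libraries lay between 36.9 and 44.2 CPM and above all HNKO libraries.

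**Figure D2:**
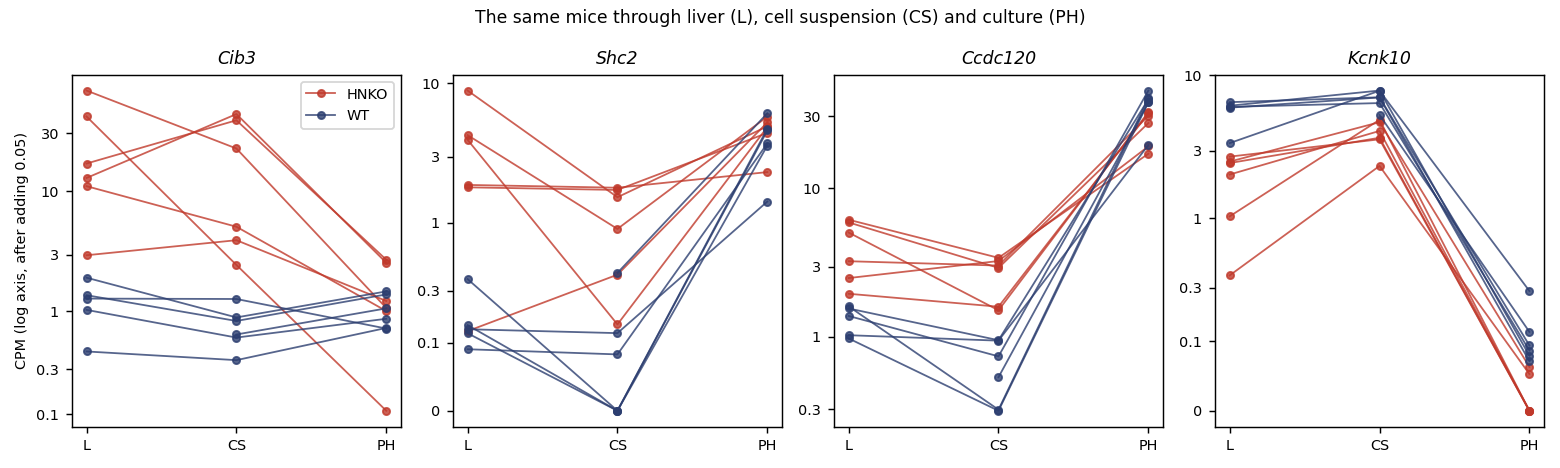
CPM of Cib3, Shc2, Ccdc120 and Kcnk10 (y axis, logarithmic after 0.05 CPM was added) in the liver (L), cell suspension (CS) and cultured hepatocytes (PH) of the same mice (lines, HNKO red and WT blue). For Cib3 the HNKO lines meet the WT lines in PH, for Shc2 and Ccdc120 the WT lines reach the HNKO lines in PH, and for Kcnk10 all lines are lowest in PH.

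Among the genes for secreted and adhesion proteins, Scube3 and Cdh6 were both rare transcripts. Scube3 is a secreted and surface-bound protein with CUB and EGF-like domains that acts with BMP and TGF-beta receptors (chr17:28142141-28174854, plus strand). Its HNKO livers had 0.630 to 5.13 CPM (median 1.43) and its WT livers 0.275, 0, 0, 0.0752 and 0.256 CPM. The groups were apart, and HNKO mouse 540 alone had 98 of the 183 Scube3 counts of the HNKO livers, against 8 counts in all WT livers. The log2 fold change was 3.90 ± 0.69 in L and 3.17 ± 0.80 in CS, where HNKO libraries had 5 to 11 counts each and 5 of 6 WT libraries had 0. The only WT suspension with Scube3 was that of mouse 544, with 4 counts. Without that mouse the HNKO suspensions, with 45 counts, were at least 10.1-fold higher than the WT suspensions, against a floor of 3 counts over the group. In PH, 5 counts were found in HNKO and 5 in WT, which put HNKO at 102% of WT (exact 95% interval 23.4 to 443%, counting error only).

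Cdh6 encodes K-cadherin, a type II cadherin of developing and adult kidney tubules (chr15:13028701-13173675, minus strand). The HNKO livers had 1.05 to 5.13 CPM (median 2.44) and the WT livers 0.412, 0.502, 0.279, 0.301 and 0 CPM, with no overlap and a log2 fold change of 3.15 ± 0.68. In CS the HNKO range was 0.0763 to 0.586 CPM and the WT range 0 to 0.298 CPM, so that the groups overlapped (1.52 ± 0.85). In PH, 3 HNKO and 4 WT libraries had no count, and WT mouse 544 held 10 of the 11 WT counts (-0.19 ± 0.89). Without that mouse 9 HNKO counts stood against 1 WT count, or 718% of WT with an exact 95% interval of 99.5 to 31500% (counting error only). Levels of markers of other cell types are set beside Cdh6 and Scube3. The summed level of the cholangiocyte markers was 104 to 1433 CPM (median 272) in HNKO L against 65.3 to 86.3 CPM (median 76.7) in WT L, 49.9 to 198 CPM in HNKO CS against 29.2 to 49.7 CPM in WT CS, and 101 to 478 CPM in HNKO PH against 39.2 to 243 CPM in WT PH. Of the 10 markers 9 were tested and 4 were called higher in HNKO L, none was at 0 in any group, and their part in the levels of Cdh6 and Scube3 was not tested. In L the sum of 10 leukocyte markers was 23.2 to 47.3 CPM in HNKO (median 27.8), all above the WT livers (lowest 16.6, median 19.55), that of 10 stellate cell markers 482 to 1140 CPM in HNKO against 334 to 490 CPM in WT, and that of 10 proliferation markers 9.11 to 146 CPM in HNKO against 7.44 to 13.2 CPM in WT. The stellate cell and proliferation sums overlapped between the genotypes in L, and so did the lists that follow. The Kupffer cell and macrophage sum was 469 to 670 CPM in HNKO against 492 to 635 CPM in WT. The sinusoidal endothelial sum was 558 to 648 CPM against 523 to 561 CPM, and the mesothelial sum 8.56 to 33.4 CPM against 8.93 to 23.5 CPM. No leukocyte, stellate cell, proliferation, Kupffer cell, endothelial or mesothelial marker was called in L, and their part was not tested either.

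The membrane transport genes differed in both directions. Atp11a, a flippase that moves phosphatidylserine and phosphatidylethanolamine to the inner leaflet of the plasma membrane, lies at chr8:12757014-12868728 on the plus strand. It had 19.9 to 38.1 CPM (median 26.2) in HNKO L, and 16.2, 11.4, 10.1, 17.2 and 11.4 CPM in WT L. The lowest HNKO liver (mouse 566) was above the highest WT liver (mouse 556), at a log2 fold change of 1.04 ± 0.23. The groups were also apart in CS, with 20.9 to 40.7 CPM in HNKO against 5.86 to 16.4 CPM in WT (1.19 ± 0.22). In PH the ranges were 54.6 to 87.8 CPM in HNKO against 28.4 to 57.4 CPM in WT (0.74 ± 0.21), and they met at HNKO mouse 540 and WT mouse 544 alone.

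Aqp4, a water channel best known from astrocyte end-feet, lies at chr18:15389496-15410982 on the minus strand. The HNKO livers had 0.471 to 2.09 CPM (median 0.926) and the WT livers 2.95, 6.65, 7.53, 4.36 and 6.66 CPM, with no overlap and a log2 fold change of -2.34 ± 0.43. In CS the HNKO range of 1.07 to 4.34 CPM reached into the WT range of 1.98 to 11.0 CPM (-1.48 ± 0.40). Of the HNKO suspensions, those of mice 562 and 566 were above the lowest WT suspension, that of mouse 558. In PH the gene was nearly absent, with 2 counts in HNKO, both from mouse 566, and 12 counts in WT, at 1 to 4 per library. Pooled over libraries, HNKO PH had 17.0% of the WT PH level (exact 95% interval 1.85 to 76.2%, counting error only).

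Kcnk10, a tandem-pore-domain potassium channel that carries a background current opened by stretch and fatty acids, lies at chr12:98429437-98578310 on the minus strand. It had 0.374 to 2.72 CPM (median 2.25) in HNKO L, and 6.04, 5.96, 6.51, 3.38 and 6.15 CPM in WT L. All HNKO livers were below all WT livers, with HNKO mouse 552 the lowest and WT mouse 556 the nearest to the HNKO range (-1.58 ± 0.30). In CS the range was 2.34 to 4.91 CPM in HNKO against 5.31 to 7.83 CPM in WT (-0.83 ± 0.28), again without overlap. In PH 4 of 6 HNKO libraries had no count and the others 1 each, while the WT libraries had 1 to 6 counts, giving HNKO 14.5% of the WT level (exact 95% interval 1.6 to 63.3%, counting error only). The absence of overlap in PH thus rested on 2 counts against 14. At the boundary, HNKO mouse 540 (0.04999 CPM) and WT mouse 548 (0.05941 CPM) had 1 count each and were apart only through library size.

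Dct encodes dopachrome tautomerase, an enzyme of melanin synthesis (chr14:118012790-118052244, minus strand). The HNKO livers had 1.498 to 4.63 CPM (median 2.83) and the WT livers 10.8, 11.6, 24.8, 13.8 and 12.2 CPM. The groups were far apart, and WT mouse 554 was the highest (-2.29 ± 0.35). In CS the level was 4.08 to 8.95 CPM in HNKO against 9.50 to 23.3 CPM in WT (-1.37 ± 0.33), and in PH 0.0754 to 0.347 CPM in HNKO against 0.416 to 2.21 CPM in WT (-2.38 ± 0.48). In each sample type every HNKO library was below every WT library, and in PH the difference rested on 24 counts in HNKO against 130 in WT (18.8%, exact 95% interval 11.6 to 29.2%). The melanocyte genes Tyr, Tyrp1, Mlana and Sox10 were at 0 counts in all WT L, CS and PH libraries and in all HNKO CS and PH libraries, and Tyrp1 and Sox10 were at 0 in HNKO L as well. Pmel, another melanocyte gene, was detected and averaged 0.310 CPM in HNKO L and 0.573 CPM in WT L, and the pigment gene Slc45a2 averaged 0.217 and 0.371 CPM. The whole list of 8 melanocyte and glia markers summed to 4.278 to 8.168 CPM in HNKO L and 3.905 to 6.276 CPM in WT L. The part of these genes in the level of Dct was not tested.

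Hopx encodes a small homeodomain protein that does not bind DNA itself and acts with Srf and histone deacetylases in the heart. It lies at chr5:77086988-77115121 on the minus strand and had the mildest difference of the 10 in L. The HNKO livers had 20.1 to 38.8 CPM (median 28.6) and the WT livers 43.9, 48.5, 55.3, 44.5 and 58.4 CPM, with no overlap (-0.79 ± 0.20). In CS the ranges overlapped, with 19.3 to 40.5 CPM in HNKO against 35.9 to 54.4 CPM in WT (-0.42 ± 0.19). In PH they were 2.91 to 4.47 CPM in HNKO against 3.66 to 11.2 CPM in WT (-0.80 ± 0.21), where only WT mouse 544, at 3.66 CPM, lay within the HNKO range. The exons share 412 bases with the opposite-strand gene Hopxos, which itself had 0 to 3 counts in every library.

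For the 4 lower genes, the summed level of 10 hepatocyte markers stood at 91190 to 170500 CPM in HNKO L against 155100 to 192100 CPM in WT L, at 112300 to 178900 CPM in HNKO CS against 153500 to 205200 CPM in WT CS, and at 30760 to 46300 CPM in HNKO PH against 36730 to 59480 CPM in WT PH. None of the 10 markers was at 0 in any group. Their median log2 fold changes were -0.415 in L, -0.155 in CS and -0.60 in PH, and their part in the levels of the 4 genes was not tested. In PH 6 of the 10 markers were called lower in HNKO, in L 1 was called higher and in CS none was called.

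**Figure D3:**
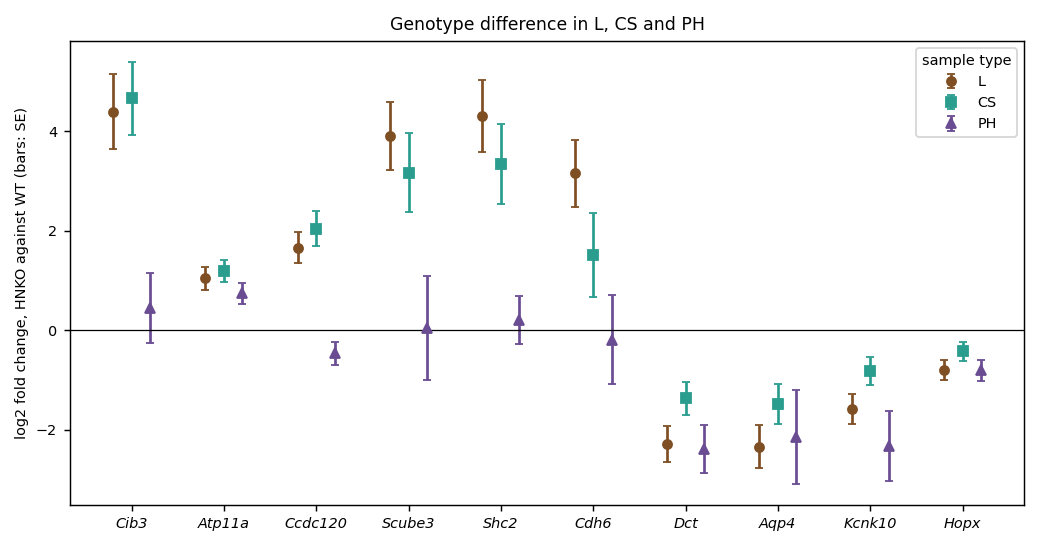
Fitted log2 fold change of HNKO against WT (y axis, bars are SE) for the 10 genes (x axis) in liver (L), cell suspension (CS) and primary hepatocytes (PH). The 4 lower genes are below 0 in all 3 sample types, while of the 6 genes that were higher in L and CS, Atp11a alone is above 0 by more than its SE in PH.

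Per kilobase of exon, Hopx had the highest level of the 10 in both liver groups, at 19.0 CPM per kb in HNKO L and 33.1 CPM per kb in WT L, and Cib3 was next in HNKO L at 12.6 CPM per kb but had 0.599 CPM per kb in WT L. Scube3 had the lowest level in WT L, at 0.0137 CPM per kb, against 0.214 CPM per kb in HNKO L. In PH the order changed. Ccdc120 was the highest, at 6.24 CPM per kb in HNKO PH and 8.62 CPM per kb in WT PH. Atp11a followed in HNKO PH at 6.19 CPM per kb, above Hopx at 2.49 CPM per kb, whereas in WT PH Hopx (4.33 CPM per kb) was above Atp11a (3.70 CPM per kb).

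The contrast of sample types, averaged over HNKO and WT and tested with the quasi-likelihood test of edgeR over all 14932 genes, asked how the genes behave once cells leave the liver. Scube3 and Cdh6 are left out of the counts for the reason given above, which leaves 8 genes that passed the filter in each genotype alone. In CS against L, 2 of the 8 were called at an adjusted p under 0.05, 1 higher and 1 lower, beside 10.7% of all tested genes (4.01% higher and 6.73% lower). Kcnk10 was higher in CS (log2 fold change 0.68 ± 0.21, adjusted p = 0.0286) and was higher in CS in 6 of 6 HNKO and 5 of 5 WT mice. Ccdc120 was lower (-0.84 ± 0.24, adjusted p = 0.0173). Neither was called without WT mouse 564, and Kcnk10 also missed the threshold without any of HNKO 566 or WT 548, 554 and 556. For Hopx the difference was -0.01 with a 95% interval of -0.28 to 0.25 (log2), and for Atp11a -0.18 with an interval of -0.48 to 0.13. The intervals of Cib3 (-1.53 to 0.49), Shc2 (-2.36 to 0.02), Dct (0.01 to 0.95) and Aqp4 (-0.04 to 1.10) were wider.

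Cdh6 had a difference of -2.20 ± 0.54 between CS and L and was lower in CS in 6 of 6 HNKO and 4 of 5 WT mice, and Scube3 had -1.40 ± 0.58. In the same contrast 8 of 9 tested cholangiocyte markers, 7 of 7 mesothelial, 8 of 8 leukocyte and 5 of 10 stellate cell markers were called lower in CS, and 8 of 10 sinusoidal endothelial markers were called higher. No hepatocyte marker was called. The part of these markers in the levels of the 10 genes was not tested.

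Averaged over the genotypes, all 8 of these genes differed between PH and the other sample types, as did most genes of the table. In PH against L all 8 were called, 3 higher and 5 lower, beside 83.0% of all tested genes (41.5% higher and 41.6% lower). In PH against CS all 8 were called as well, 3 higher and 5 lower, again beside 83.0% (42.6% and 40.4%). Such counts are not far from what the whole table gave. The levels that chose the genes also enter these contrasts, so the counts are not read as a result about the 8 genes. Ccdc120, Shc2 and Atp11a were higher in PH than in L, at log2 fold changes of 3.70, 2.47 and 1.49. Kcnk10 and Aqp4 had the largest falls, at -5.83 and -5.53, followed by Dct (-3.72), Hopx (-2.93) and Cib3 (-2.19). The median over all tested genes was 0.01. Against CS, Ccdc120, Shc2 and Atp11a were higher in PH as well (4.54, 3.64 and 1.66), and Kcnk10, Aqp4, Dct, Hopx and Cib3 were lower. For Cib3 and Shc2 the average does not describe each genotype, so their calls are not read as a change in both. In WT, Cib3 had log2 fold changes of -0.22 ± 0.78 for PH against L and 0.43 ± 0.81 for PH against CS. In HNKO, Shc2 had 0.42 ± 0.49 for PH against L. The values of Cdh6 and Scube3 for PH against L were -3.37 and -3.28, and for PH against CS -1.17 and -1.88. Without WT mouse 544 the values for PH against CS were -2.31 for Cdh6 and -0.57 for Scube3.

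Set apart by genotype, the change from L to PH is given as values only, because the HNKO and WT liver levels that chose the genes enter these folds. Shc2 had a log2 fold change of PH against L of 0.42 ± 0.49 in HNKO and 4.53 ± 0.72 in WT, and Ccdc120 had 2.65 ± 0.26 in HNKO and 4.76 ± 0.32 in WT. Cib3 had -4.16 ± 0.67 in HNKO and -0.22 ± 0.78 in WT, Scube3 -5.20 ± 0.69 in HNKO and -1.35 ± 0.94 in WT, and Cdh6 -5.04 ± 0.72 in HNKO and -1.70 ± 0.83 in WT. For these 5 genes the values of the genotypes lay 2 or more log2 units apart. For Atp11a they lay closer, at 1.33 ± 0.21 in HNKO and 1.64 ± 0.23 in WT, as they did for Hopx (-2.93 ± 0.21 in HNKO and -2.92 ± 0.21 in WT), Dct (-3.77 ± 0.46 in HNKO and -3.67 ± 0.38 in WT), Aqp4 (-5.43 ± 0.71 in HNKO and -5.62 ± 0.54 in WT) and Kcnk10 (-6.20 ± 0.51 in HNKO and -5.45 ± 0.39 in WT). The difference between genotypes was not tested. Kcnk10 in HNKO PH rested on 2 counts over 6 libraries, against 169 counts in HNKO L (0.918%, exact 95% interval 0.11 to 3.37%).

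**Figure D4:**
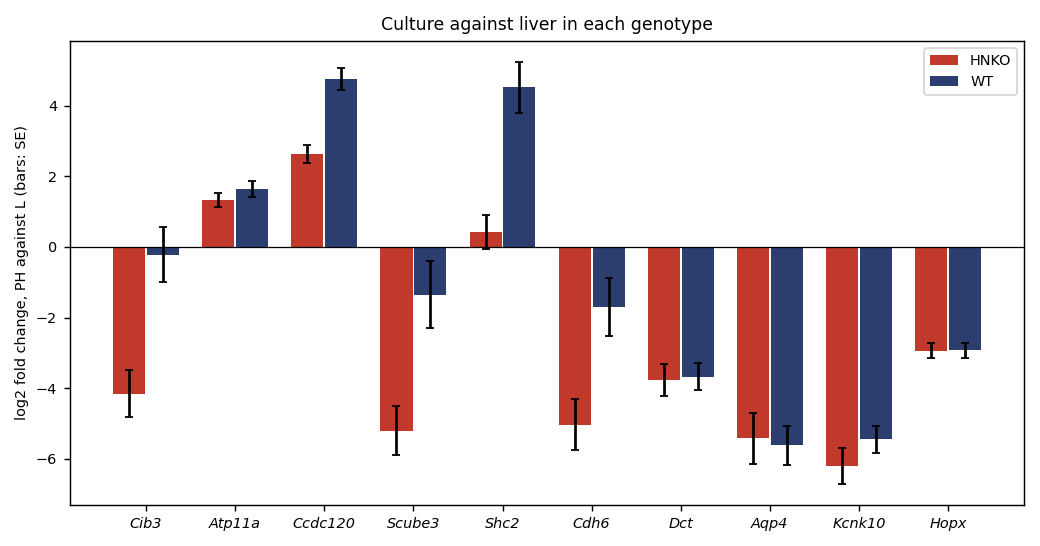
Fitted log2 fold change of PH against L (y axis, bars are SE) in HNKO (red) and WT (blue) for the 10 genes (x axis). Values are 0.42 in HNKO and 4.53 in WT for Shc2, and -4.16 in HNKO and -0.22 in WT for Cib3, while for Hopx they are -2.93 in HNKO and -2.92 in WT. The difference between genotypes was not tested.

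Across the 35 libraries the 10 genes formed 2 kinds of pattern, given as correlations of log2 CPM that share libraries and group structure. Dct, Aqp4, Kcnk10 and Hopx ran together, with Pearson r between 0.906 and 0.967 for their pairs. Ccdc120 ran against Kcnk10 at r = -0.945, and Ccdc120, Atp11a and Shc2 had r between 0.827 and 0.868 with each other. Cib3 and Scube3 (r = 0.808) and Scube3 and Cdh6 (r = 0.822) formed the other. With group means removed, the largest values were 0.648 for Ccdc120 and Shc2 and 0.565 for Kcnk10 and Hopx, and the Cib3 and Scube3 value was 0.222. The other pairs among Dct, Aqp4, Kcnk10 and Hopx then lay between -0.065 (Aqp4 and Hopx) and 0.346 (Dct and Aqp4).

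The genes whose levels were most like each member over the 35 libraries, predicted genes left out, were Mup20 (r = 0.846), Sstr2 (0.805) and Armcx4 (0.792) for Cib3. They were Osbpl3 (0.912), Ubd (0.894) and Mfge8 (0.893) for Shc2, and Elovl7 (0.976), Cd63 (0.971) and Kctd17 (0.969) for Ccdc120. Scube3 was nearest to Mdk (0.832), Foxj1 (0.83) and Cpxm1 (0.816), and Cdh6 to Foxj1 (0.898), Epcam (0.868) and Krt7 (0.863). Epcam and Krt7 are in the cholangiocyte list. Atp11a was nearest to Cpne8 (0.937), Clcf1 (0.923) and Dnaja4 (0.917). Of the lower genes, Dct was nearest to Zap70 (0.954), Slc3a1 (0.946) and Hsd11b1 (0.939), Aqp4 to Gucy2c (0.955), Npc1 (0.954) and Fgfrl1 (0.948), Kcnk10 to Hectd3 (0.978), Dcaf11 (0.978) and Lman2 (0.977), and Hopx to Hagh (0.982), Cisd1 (0.982) and Abcg8 (0.981).

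Relatives and known partners of the 10 genes mostly did not pass the test for genotype. Of 97 such genes 55 were tested. In L, 2 were called, both higher in HNKO, beside 1.51% of all tested genes (1.03% higher and 0.475% lower). Cdh3, which encodes P-cadherin, averaged 2.30 CPM in HNKO L and 0.578 CPM in WT L (log2 fold change 1.96 ± 0.47, adjusted p = 0.0273), and DESeq2 also called Cdh1. Inava, a cytohesin-binding protein like Ccdc120, had 57 counts in HNKO L and 0 in WT L, at least 14.2-fold higher against a floor of 3 counts over the group (adjusted p = 0.0295). In CS none was called by edgeR (0.0268% of all tested genes, 0.0201% higher and 0.00670% lower), 12 had an unadjusted p under 0.05 and DESeq2 called Cdh3 and Aqp1. The edgeR calls changed with the mice used. In L none was called without any of HNKO 540, HNKO 552 or WT 544, 548, 554 and 564, 1 was called without WT 556, and in CS 7 were called without WT 544 and 1 without HNKO 546.

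In PH 8 of the 55 were called in the fit over all sample types, 4 higher and 4 lower in HNKO, and none when the PH libraries were fitted alone. The 8 stood beside 12.8% of all tested genes (5.14% higher and 7.67% lower). Among the relatives of Atp11a, Atp8a1 (0.64 ± 0.19, adjusted p = 0.0242), Atp9a (0.38 ± 0.12, adjusted p = 0.0351) and Atp10a (1.53 ± 0.52, adjusted p = 0.0461) were higher in HNKO, while Atp11b (-0.40 ± 0.10, adjusted p = 0.0106) and Tmem30b, a subunit of flippases (-0.68 ± 0.23, adjusted p = 0.0422), were lower. Aqp8, a water channel of the hepatocyte, averaged 42.4 CPM in HNKO PH and 116 CPM in WT PH (-1.45 ± 0.39, adjusted p = 0.0137). Srf, the partner of Hopx, averaged 64.8 CPM in HNKO PH and 91.3 CPM in WT PH (-0.49 ± 0.14, adjusted p = 0.0214), and Shc1, the widely expressed relative of Shc2, was higher at 81.8 CPM in HNKO PH against 68.9 CPM in WT PH (0.25 ± 0.08, adjusted p = 0.0475). With single mice left out the number called in PH ran from 1 without WT 554 to 21 without WT 544, and 9 of the 12 such fits gave fewer than 6.

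The most abundant gene of each of the remaining 8 lists was not called in any sample type. These were Aqp9, Tmem30a, Frmd4b, Cdh2, Cib1, Mitf, Kcnk5 and Bmpr1a. Aqp9 averaged 506 CPM in HNKO L and 586 CPM in WT L (-0.21 ± 0.24), and Mitf, the regulator of pigment genes, averaged 3.77 CPM in HNKO L and 3.76 CPM in WT L (0.00 ± 0.20). Cib1, the widely expressed relative of Cib3, averaged 38.8 CPM in HNKO L and 43.7 CPM in WT L (-0.17 ± 0.11). The median log2 fold change of the 55 genes was 0.16 in L, 0.09 in CS and 0.12 in PH, and that of all tested genes was -0.001, 0.011 and 0.005.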

How the data were processed

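Total RNA was depleted of ribosomal RNA and made into stranded libraries by the authors, who aligned the reads to GRCm38 with STAR and counted fragments per gene with featureCounts 1.6.4, keeping those with both ends aligned. The submitters' notes name STAR 2.7.2b and the study's methods an earlier version. The deposited values are raw counts per gene with no normalization, in 36 libraries. Whether strand was used in counting is not given in the sources used here, so counts of Atp11a, Scube3, Shc2 and Hopx, whose exons share 371, 198, 63 and 412 bases with opposite-strand genes, are less certain.

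The WT liver of mouse 558 was left out, since its mean Spearman correlation with its own sample type was 0.7768, against 0.9406 to 0.9829 for the others. The study likewise excluded 1 library, which it does not name. Genes were kept by filterByExpr (minimum count 10), which left 14932 genes. The other 39300 genes held 0.086% of all counts. TMM scaled the library sizes, and correlations used log2 CPM with a prior count of 2. Differences were tested by quasi-likelihood in edgeR 4.0.16 (legacy form, R 4.3.3) with a coefficient for each of the 6 groups over all 35 libraries. Tests were two-sided and adjusted by Benjamini-Hochberg over all tested genes. A call had an adjusted p under 0.05. SE was taken as the log2 fold change over the root of the F statistic, and intervals of folds are 95% normal intervals. Ratios of summed counts have exact 95% intervals that cover counting error only and, between genotypes, describe the picked genes without testing them. DESeq2 1.42.0 was an alternative. The code of the fit was tried on simulated counts with the same dispersion for every gene and no tie between libraries of a mouse. Those settings are simpler than these data, so the trial says nothing about genes with few counts.

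The 10 genes, the lists of relatives and markers, the motifs and the tests were chosen with earlier results of these data known. Genes named were the 10, Nampt and Alb, the relatives called for genotype in any sample type, the most abundant of each list and the 3 genes most like each of the 10. Cpne8 and the markers were named after their values were seen. Symbols and positions are those of GENCODE M21 on GRCm38 (the study names M22), which gave a symbol to 54165 of 54232 genes, and promoter windows are those of RefSeq.

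Mouse numbers in the labels tie together the L, CS and PH libraries of an animal. After group means were removed, libraries of 1 mouse correlated with a median r of 0.324 for CS with L, 0.156 for PH with CS and 0.101 for PH with L, against -0.0234, -0.00091 and -0.0162 between different mice. Each mouse is a separate animal.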

Additional observations from a re-analysis of the deposited data

Results flagged for a closer look

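Single libraries that stood apart from the rest of their group in the 10 genes were looked for with Dixon's ratio at the 95% level. Of 60 tests 12 passed. Chance gives about 1 in 20 where values are normally distributed, which groups with most libraries at or near 0 counts are not, so the 2 rates cannot be compared. A single library above 0 passes by construction. WT mouse 544 gave 3 of them. Its cultured hepatocytes had Ccdc120 at 19.3 CPM (36.9 to 44.2 CPM in the other WT PH libraries) and Cdh6 at 0.398 CPM (0 to 0.0693 CPM), and its suspension had Scube3 at 0.252 CPM where the other WT CS libraries had 0. Among the WT PH libraries mouse 544 also had the highest cholangiocyte (243 CPM, group median 55.3) and stellate cell sums (275 CPM, median 100.5), and the lowest Alb (33870 CPM). Its leukocyte (4.89 CPM, median 0.425), sinusoidal endothelial (189 CPM, median 160), mesothelial (0.358 CPM, median 0.0704) and proliferation sums (4.73 CPM, median 2.88) were the highest too. The highest Kupffer cell sum was that of mouse 558 (519 CPM), and the highest melanocyte and glia sum that of mouse 556 (4.84 CPM). The part of these cell types was not tested. In HNKO mice, Atp11a was 40.7 CPM in the suspension of mouse 552 (20.9 to 26.0 CPM in the others), Scube3 was 5.13 CPM in the liver of mouse 540 (0.630 to 1.81 CPM), and Aqp4 was 0.110 CPM in the culture of mouse 566, where the other HNKO PH libraries had 0.

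Among the WT livers, mouse 554 had Dct at 24.8 CPM (10.8 to 13.8 CPM in the others) and Shc2 at 0.372 CPM (0.0854 to 0.150 CPM), and mouse 556 had the lowest Kcnk10, at 3.38 CPM (5.96 to 6.51 CPM). In the culture of mouse 556 Kcnk10 was the highest of the WT PH libraries, at 0.282 CPM (0.0594 to 0.124 CPM). Shc2 was 0.416 CPM in the WT suspension of mouse 558 (0 to 0.126 CPM), and Aqp4 was 0.277 CPM in the WT culture of mouse 564 (0.0451 to 0.124 CPM).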

How the results depend on the processing

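Among the genes described here, no called difference between sample types turned its sign under any alternative run. Over all tested genes this was not checked. With library totals in place of TMM factors, the median log2 fold change of all tested genes was 0.69 in PH against CS (0.04 with TMM), 0.51 in PH against L (0.01), -0.14 in CS against L (0.01), and for HNKO against WT 0.18 in L (-0.001), 0.12 in CS (0.011) and 0.09 in PH (0.005). The share of calls that were higher was then 70.6% in PH against CS (51.3% with TMM), 65.5% in PH against L (49.9%), 8.21% in CS against L (37.3%), 95.9% for HNKO in L (68.4%), 94.7% in CS (75%) and 61.7% in PH (40.1%). The balance of genotype calls in PH thus turned from mostly lower to mostly higher. Under library totals Cib3 missed the threshold in PH against CS (-1.02, adjusted p = 0.0691 by edgeR) and so did Kcnk10 in CS against L (0.54, adjusted p = 0.0651).

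With the mouse as replicate block, and with Scube3 and Cdh6 counted in, 3, 9 and 10 of the 10 genes were called in CS against L, PH against CS and PH against L, as without it. Over all genes the block gave 2197, 12526 and 12527 calls, against 1604, 12397 and 12396 without it. The block was fitted for these 3 contrasts only.

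Leaving out single mice gave 1 to 3 of the 10 genes called in CS against L (Cdh6 counted in), 2 to 5 apart between genotypes in PH, and 0 to 3, 0 to 7 and 1 to 21 relatives called for genotype in L, CS and PH. With all 36 libraries, the WT liver of mouse 558 among them, 6 of the 10 genes were apart in L (9 without it). With library totals 5 were apart in CS (6 with TMM). The relatives called in L were 4 with library totals and 1 when only the sample type compared was fitted. In PH they were 3 without the filter, 2 with all 36 libraries and 0 when only that sample type was fitted, and in CS DESeq2 called 2. The causes were not tested. Shifts of the genotype folds of the 10 genes were set beside the SD of log2 CPM between single libraries within groups. Leaving out 1 mouse shifts a group mean by only part of that SD, so this is a loose yardstick and no test of stability. Of the 514 values under alternatives, 507 moved by less than that SD. The other 7 were folds with few counts in a group, and those of Cdh6 and Scube3 in PH changed sign. By summed counts, HNKO PH had 8.82% of the WT level of Kcnk10 without HNKO 540, 9.37% without HNKO 552 and 20.8% without WT 556 (14.5% with all), Cdh6 718% without WT 544 (83.3%) and Scube3 69.2% without HNKO 542 (102%). Scube3 in CS was at least 10.1-fold higher in HNKO without WT 544, and Aqp4 in PH, with 0 counts in HNKO without mouse 566, at least 3.3-fold lower in HNKO. Depth limits Scube3, Cdh6, Aqp4 and Kcnk10 in PH, where groups held 2 to 14 counts.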
